A study of Rattus norvegicus with 8 samples.

Results

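The order in which primary neurons received an antioxidant and an amyloid oligomer was compared on 4 of the 8 arrays of the series. The members were the 2 arrays titled CAT+ADDL and the 2 titled ADDL+CAT, taken from the titles alone, and the measure was the difference of their mean log2 ratios over every probe above background. ADDL are oligomers of the amyloid-beta peptide, which builds up in the brain in Alzheimer's disease, and they remain in solution. CAT-SKL is a form of catalase that carries an import signal for peroxisomes, the organelles in which catalase breaks down hydrogen peroxide.

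Cortical and hippocampal neurons of Sprague Dawley rats, taken at embryonic day 18, were kept for 7 days in vitro before treatment. CAT+ADDL neurons were taken to have had 1 µM CAT-SKL for 24 h and then 1 µM ADDL for 24 h, and ADDL+CAT neurons the same agents, doses and times in the opposite order. The labels do not state the order for each array, so it was read from the combined names. The other arrays held neurons given CAT-SKL alone (2 arrays) or ADDL alone (2 arrays), 1 µM for 24 h, and entered the fit to share its estimate of the spread. Every array set treated RNA in Cy5 against vehicle-treated RNA in Cy3, with no dye swap, so a log2 ratio above 0 means more in the treated neurons. A probe's dye effect is shared by both arms and cancels in their difference. Arrays of a group are named biological replicates in the labels, which leave it unstated whether vehicle RNA came from 1 pool. The p-values measure only the spread between these samples. The tissue holds other cells than neurons, and in bulk RNA fewer cells of a type and less RNA per cell cannot be told apart.

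As background, hydrogen peroxide is made in peroxisomes by oxidases and removed there by catalase, while peroxiredoxins and glutathione peroxidases remove it elsewhere in the cell. Amyloid-beta oligomers bind at synapses and are known to disturb synaptic signalling and calcium. Neuronal activity is read out at the RNA level by immediate early genes such as Arc, Egr1 and Fos, which are transcribed within minutes of calcium entry. Cultures from embryonic cortex also hold dividing progenitors and the precursors of astrocytes and oligodendrocytes, whose marker genes are far less abundant in pure neurons.

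The arrays of the arms were of unequal quality. The median Cy5 signal was 123 and 124 on the CAT+ADDL arrays, against 127.5 and 87.5 on the ADDL+CAT arrays. ADDL+CAT 2 had the fewest probes well above background in Cy5 (73.3%, against 79.9% on ADDL+CAT 1 and 79.5% and 81.0% on the CAT+ADDL arrays). It also had the largest spread between spots of a probe (SD 0.134 on the log2 scale, against 0.0854 to 0.0877 on the other arrays of the arms). Over 14330 probes with 2 spots, the SD of the difference between the CAT+ADDL arrays was 0.0850, where spot noise by itself gave 0.0841. What separated these arrays on a probe's first spot was not seen on its second (r = 0.0108 over probes, and probes are no independent replicates), whereas r was 0.298 or more for every other pair of arrays. Their mean therefore entered the fit as 1 sample of 7, on the assumption that it varies like the other groups. All arrays lay on 1 slide, with the arms in adjacent positions of the same row, so position and order of agents cannot be told apart.

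By the SD over all probes, the arms lay as far from each other as the ADDL+CAT arrays lay from one another, or further. The SD over probes of the difference in log2 ratio between a CAT+ADDL and an ADDL+CAT array was 0.165 and 0.162 for ADDL+CAT 1, and 0.199 and 0.196 for ADDL+CAT 2. Within an arm it was 0.0978 for CAT+ADDL and 0.161 for ADDL+CAT. Over probes with 2 spots, the SD within ADDL+CAT was 0.144, where spot noise by itself gave 0.103. Between the arms it was 0.160 to 0.194, where spot noise gave 0.0807 to 0.114. The correlation of the difference on first and second spots was 0.327 within ADDL+CAT and 0.473 to 0.601 between the arms. Array CAT-SKL 1 stood nearer to the CAT+ADDL arrays (0.118 and 0.123) than to its own replicate (0.168), and CAT-SKL 2 was nearer to ADDL+CAT 1 (0.130) than to CAT-SKL 1.

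**Figure D1:**
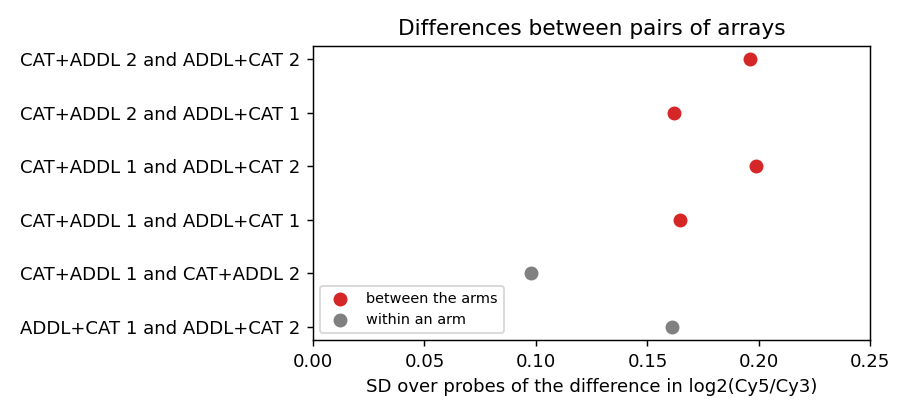
The SD over probes of the difference in log2(Cy5/Cy3) is plotted for each pair of arrays of the sequential arms, with pairs between the arms in red and pairs within an arm in grey. The pairs between the arms sit between 0.162 and 0.199, and the ADDL+CAT pair sits at 0.161, beside the lowest of them.

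No probe passed the threshold between the orders of treatment. Of 25296 probes tested with limma and Benjamini-Hochberg adjustment, 0 (0%) had an adjusted p under 0.05, and the smallest adjusted p was 0.870. At an unadjusted p under 0.05 there were 725 probes higher in CAT+ADDL (2.87%) and 690 lower (2.73%), together 5.59% of those tested. The difference was small for most probes: its median was -0.0021 on the log2 scale, the 5th and 95th percentiles were -0.24 and 0.24, and the median standard error was 0.109. Only 17 probes differed by at least 1 log2 unit, and 129 by at least 1.5-fold. The arrays of the arms did not overlap for 6115 probes higher in CAT+ADDL (24.2%) and 6376 lower (25.2%), and the counts of genes below are read against these shares.

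The genes with the smallest p among those with arrays apart and a Cy5 signal well above background on all 4 arrays are given here as values. Each had an adjusted p of 0.870 in limma (7 samples), so none is called changed. Mgp encodes matrix Gla protein, an inhibitor of calcification. Its log2 ratio was 0.67 and 0.75 in CAT+ADDL, against -0.36 and -0.89 in ADDL+CAT, a difference of 1.33 ± 0.27 (SE). Bcas1, a gene of early myelinating oligodendrocytes, had ratios of 1.40 and 1.41 in CAT+ADDL and -0.08 and -0.41 in ADDL+CAT, a difference of 1.65 ± 0.34, and its other probe gave 1.00. Both genes were thus above vehicle on each CAT+ADDL array and below it on each ADDL+CAT array. Replicates of CAT-SKL alone were also apart, at 0.29 and -0.36 for Mgp and at 1.17 and 0.16 for Bcas1. With ADDL alone, Mgp was at 0.43 and 0.38 and Bcas1 at 0.54 and 0.59.

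Cdkn1c encodes p57, an inhibitor of cyclin-dependent kinases. It stood at 1.26 and 1.23 in CAT+ADDL, against 0.08 and -0.11 in ADDL+CAT (difference 1.26 ± 0.26), and another probe gave 0.62. Septin7, a cytoskeletal GTPase, was at 0.39 and 0.43 in CAT+ADDL and at -0.23 and -0.57 in ADDL+CAT (0.81 ± 0.15). Pxmp2, a channel protein of the peroxisomal membrane, was at 0.48 and 0.52 in CAT+ADDL and at -0.08 and -0.11 in ADDL+CAT (0.59 ± 0.12), with 0.40 from another probe. The other genes in this direction were Rsl24d1 (0.63), a ribosome assembly factor, the neuropeptide gene Cartpt (0.56), the Notch ligand gene Dll3 (0.55), the vesicle transport gene Trappc2 (0.54) and the chromatin gene Pogz (0.50). A second probe of Pogz gave 0.0019, so its probes disagree.

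In the opposite direction, Shoc2, a scaffold of RAS signalling, had ratios of -0.62 and -0.56 in CAT+ADDL, against 0.08 and 0.07 in ADDL+CAT, a difference of -0.66 ± 0.14. Map2k4, a kinase upstream of JNK, was at -0.56 and -0.42 in CAT+ADDL and at 0.10 and 0.08 in ADDL+CAT (-0.58 ± 0.13), but another probe gave -0.11. The growth factor receptor gene Fgfr1 was at -0.33 and -0.30 in CAT+ADDL and at 0.33 and 0.19 in ADDL+CAT (-0.57 ± 0.13), and another probe gave -0.36. These 3 genes were below vehicle on both CAT+ADDL arrays and above it on both ADDL+CAT arrays.

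Cacna1h, a T-type calcium channel, was at -0.29 and -0.18 in CAT+ADDL and at 0.30 and 0.31 in ADDL+CAT (-0.54 ± 0.13). The somatostatin receptor gene Sstr3 was at -0.10 and -0.21 in CAT+ADDL and at 0.23 and 0.22 in ADDL+CAT (-0.38 ± 0.09). The others were Lrrfip1 (-0.62, another probe -0.13), Rufy2 (-0.54, another probe -0.25), Nfxl1 (-0.52), the imprinted gene Mest (-0.44) and the exonuclease gene Isg20 (-0.42). Among probes without a gene symbol, an unnamed transcript had the smallest p among those with arrays apart (unadjusted p = 7.3e-05): -1.41 and -1.54 in CAT+ADDL, against 0.07 and -0.14 in ADDL+CAT, a difference of -1.44 ± 0.19.

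**Figure D2:**
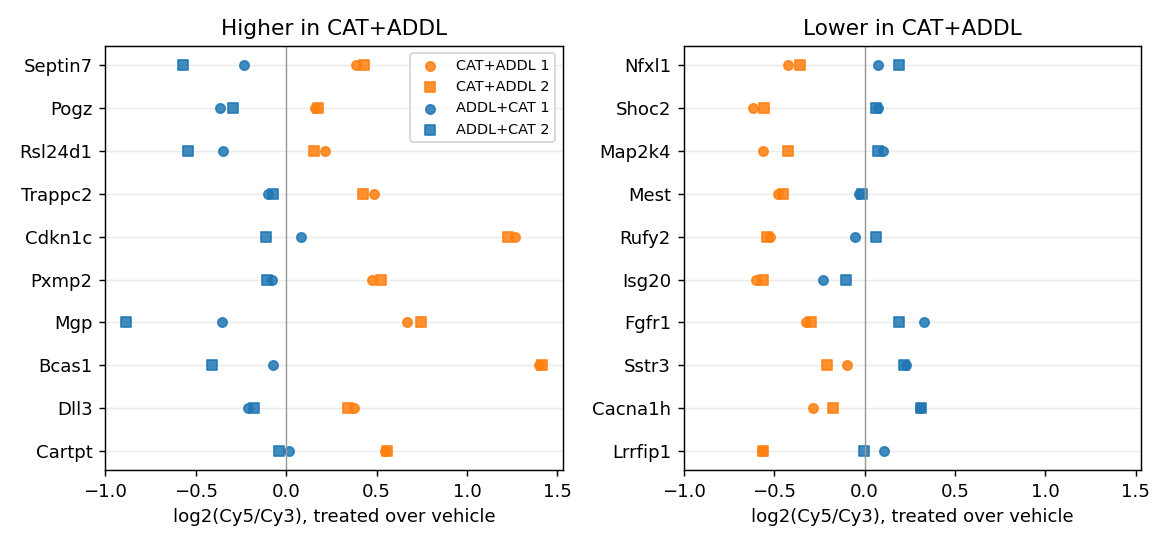
The log2(Cy5/Cy3) ratio of each array is plotted for the 10 named genes with the smallest p in each direction; orange marks CAT+ADDL, blue ADDL+CAT, circles array 1 and squares array 2. The arms do not overlap for any of these genes, which is how they were chosen, and the orange marks lie close together because these arrays differed by about the noise between spots.

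Glial marker genes formed the groups that lay highest in CAT+ADDL relative to ADDL+CAT. Of 14 oligodendrocyte lineage markers measured (16 listed), 0 passed the threshold, 10 were higher with arrays apart and 2 lower, against 24.2% and 25.2% of all probes. The median log2 ratio of the list was 0.42 and 0.43 in CAT+ADDL and 0.02 and -0.03 in ADDL+CAT, and the median difference was 0.46, against -0.0021 over all probes. Without ADDL+CAT 2, the array of lowest quality, the median difference was 0.30.

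Members of this list did not move alike. Mbp, a protein of compact myelin, had ratios of 0.83 and 0.89 in CAT+ADDL and -1.22 and -1.02 in ADDL+CAT, the widest difference among the named genes (1.98 ± 0.51, SE, adjusted p = 0.870). Another probe of Mbp gave -0.07, so the difference was seen with a single probe. On the single-treatment arrays that probe stood at 0.70 and -0.78 with CAT-SKL and at 0.41 and -0.29 with ADDL. Replicates of each single treatment thus lay on opposite sides of vehicle. Olig2 and Olig1, transcription factors of the lineage, differed by 0.69 ± 0.15 and 0.96 ± 0.28, and a second Olig2 probe gave 0.0016.

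The precursor gene Cspg4 was at 0.78 and 0.80 in CAT+ADDL, against 0.34 and 0.17 in ADDL+CAT. Pdgfra, the receptor that defines oligodendrocyte precursors, was above vehicle in both arms, at 1.24 and 1.17 in CAT+ADDL and at 1.00 and 0.42 in ADDL+CAT. Cnp and Sox10 differed by 0.56 and 0.51, while the myelin genes Mog (-0.07) and Mobp (-0.06) overlapped between the arms and Gpr17 (-0.19) and Cldn11 (-0.11) were lower in CAT+ADDL. Precursor and myelin genes were thus both found among the members that lay higher.

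Astrocyte markers had the next highest median. Of 17 measured (19 listed), 0 passed, 13 were higher with arrays apart and 1 was lower, and the median difference was 0.40 (0.28 without ADDL+CAT 2). The median ratio was 0.46 and 0.37 in CAT+ADDL, against 0.13 and -0.01 in ADDL+CAT. Fabp7, a fatty acid binding protein of radial glia, stood at 1.51 and 1.46 in CAT+ADDL and at 0.59 and -0.15 in ADDL+CAT (difference 1.27 ± 0.43, SE). The gap junction gene Gja1 was at 1.37 and 1.35 in CAT+ADDL and at 0.43 and -0.01 in ADDL+CAT (1.15 ± 0.39).

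S100b, a calcium-binding protein, differed by 1.13 ± 0.39, but another of its probes gave 0.21. Slc1a3, a glutamate transporter of astrocytes, differed by 0.94, the water channel gene Aqp4 by 1.03 and the intermediate filament gene Gfap by 0.47. The other astrocytic glutamate transporter gene, Slc1a2, was slightly lower in CAT+ADDL (0.05 and 0.02, against 0.13 and 0.10), and Vim overlapped. For most of these genes ADDL+CAT 1 lay between ADDL+CAT 2 and the CAT+ADDL arrays.

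**Figure D3:**
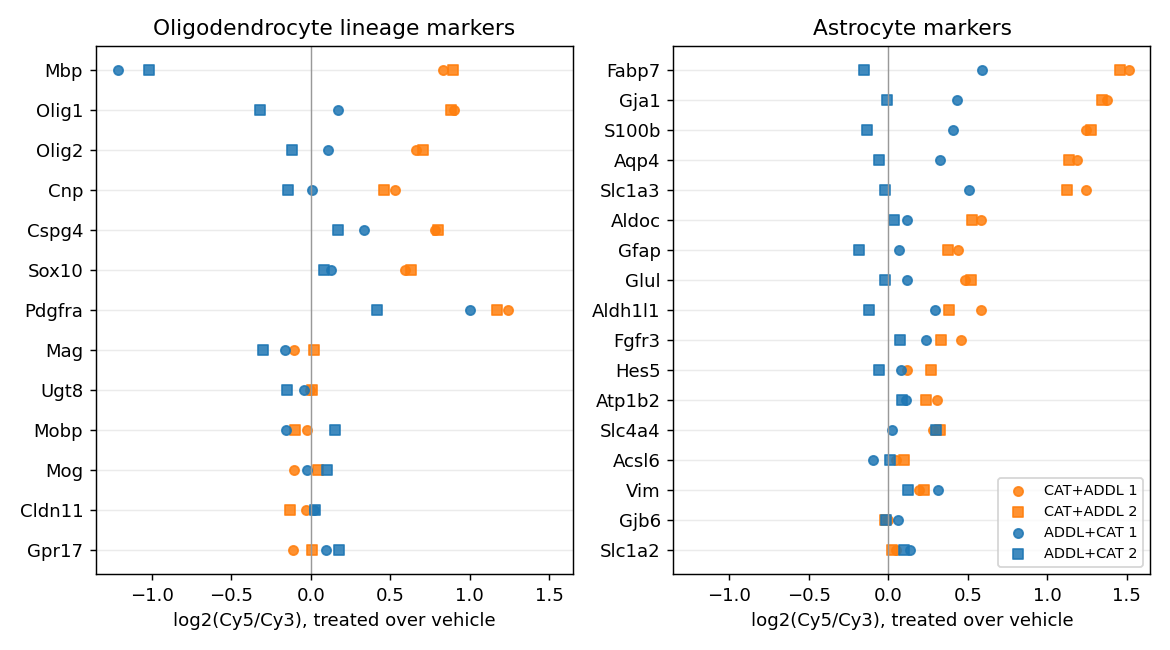
The log2(Cy5/Cy3) ratio of each array is plotted for 13 of the 14 oligodendrocyte lineage markers and the 17 astrocyte markers measured, ordered by the difference between the arms. Mbp is the gene with the widest gap, and for Fabp7, Gja1, S100b and Slc1a3 the 2 ADDL+CAT arrays are themselves apart.

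Among the single treatments, the CAT-SKL replicates also stood apart in their glial marker content. The median ratio of the astrocyte list was 0.56 and 0.14 on the CAT-SKL arrays and 0.30 and 0.57 on the ADDL arrays, so the CAT-SKL replicates lay about as far apart as the arms did. The oligodendrocyte list stood at 0.32 and 0.05 on the CAT-SKL arrays and at 0.15 and 0.12 on the ADDL arrays. In Cy5, all 14 neuron markers, 16 of 17 astrocyte markers, 13 of 14 oligodendrocyte markers and 13 of 16 microglia markers were well above background on all 4 arrays of the arms. Microglia markers differed by a median of 0.05, with 4 higher and 2 lower with arrays apart, and the median was -0.0053 without ADDL+CAT 1. Measured in the vehicle channel alone, the median difference between the arms was 0.04 for astrocyte and 0.07 for oligodendrocyte markers, against 0.50 and 0.47 in the treated channel alone.

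Progenitor and interneuron genes lay in the same direction as the glial markers. Of 21 progenitor and cell cycle genes, 14 were higher with arrays apart and 1 was lower. Their median difference was 0.20 (0.30 without ADDL+CAT 1 and 0.16 without ADDL+CAT 2). The median ratio of the list was 0.29 and 0.37 in CAT+ADDL, against 0.28 and 0.02 in ADDL+CAT, so ADDL+CAT 1 lay close to CAT+ADDL 1. Sox2, a stem cell transcription factor, was at 0.80 and 0.81 in CAT+ADDL and at 0.06 and -0.37 in ADDL+CAT (0.96 ± 0.32), and a second probe gave 0.77. The replication gene Mcm3 differed by 0.54 ± 0.14, but its other probe gave -0.05.

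Of 18 genes of inhibitory GABAergic neurons, 12 were higher with arrays apart and 1 was lower, with a median difference of 0.20 that was 0.10 without ADDL+CAT 2. Nxph1, a synaptic ligand of neurexins, was at 0.73 and 0.80 in CAT+ADDL, with -0.0029 and -0.13 in ADDL+CAT (0.83 ± 0.23). Another Nxph1 probe gave 0.29, with 0.45 and 0.51 in CAT+ADDL and 0.25 and 0.14 in ADDL+CAT, above vehicle in both arms. The genes of the enzymes that make GABA differed by 0.29 (Gad1) and 0.17 (Gad2). The vesicular GABA transporter gene Slc32a1 was above vehicle in both arms, at 0.80 and 0.69 in CAT+ADDL and at 0.39 and 0.25 in ADDL+CAT.

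**Figure D4:**
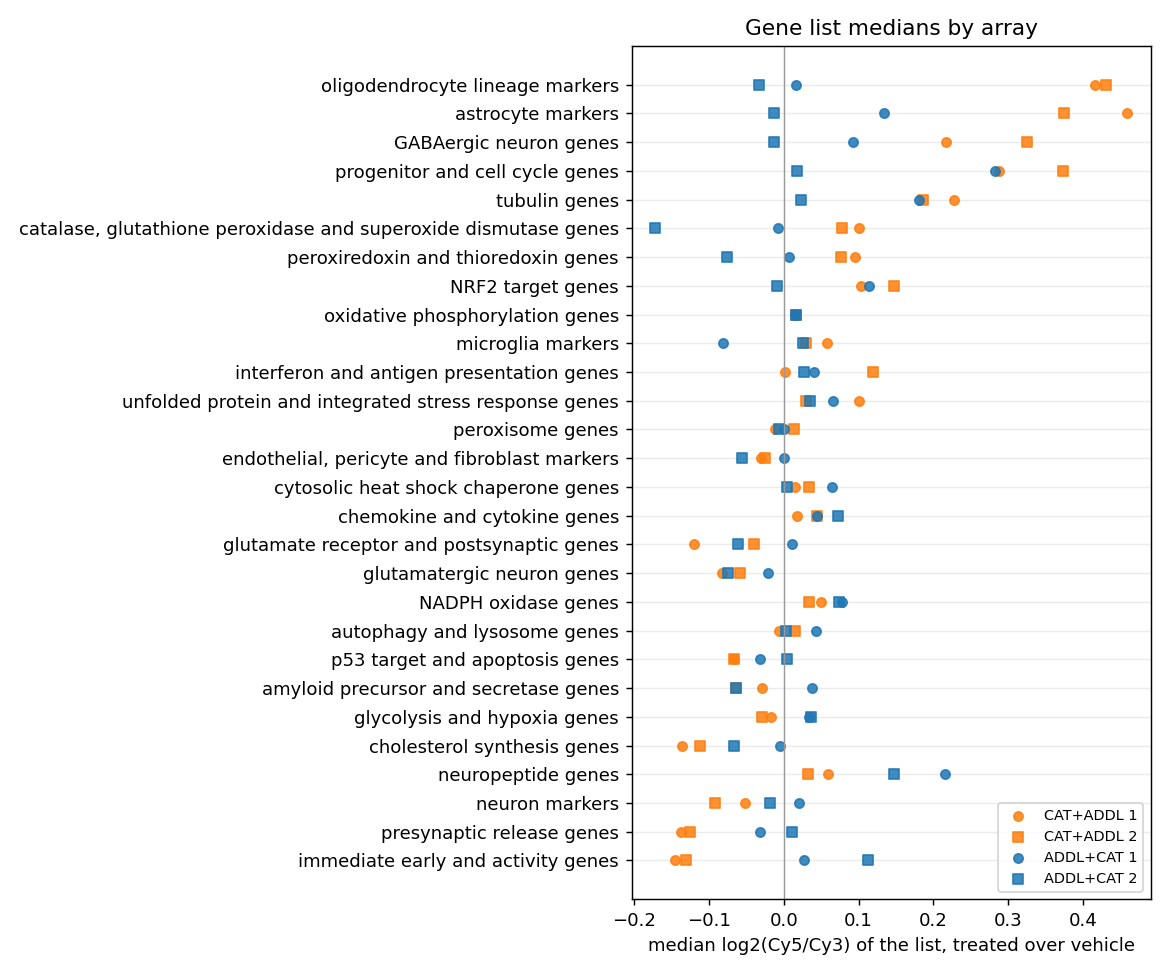
The median log2(Cy5/Cy3) ratio of each of the 28 gene lists is plotted for each array, with lists ordered from the highest to the lowest median difference between the arms (orange CAT+ADDL, blue ADDL+CAT). Oligodendrocyte and astrocyte markers are at the top, with medians of 0.37 to 0.46 in CAT+ADDL, and immediate early genes are at the bottom, with -0.15 and -0.13 in CAT+ADDL.

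Immediate early and activity genes were the list that lay lowest in CAT+ADDL. Of 34 measured (36 listed), 0 passed the threshold, 25 were lower with arrays apart and 1 was higher, against 25.2% and 24.2% of all probes. The median ratio was -0.15 and -0.13 in CAT+ADDL and 0.03 and 0.11 in ADDL+CAT, and the median difference was -0.21 (-0.25 to -0.19 without any 1 array of the arms). Beside it, the median of neuron markers differed by -0.10 (2 of 14 higher and 8 lower with arrays apart; -0.04 without ADDL+CAT 1). The part of the cell type markers in this result was not tested.

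Arc, a cytoskeletal protein of active synapses, had a log2 ratio of -0.39 on both CAT+ADDL arrays, against 0.22 and 0.26 in ADDL+CAT, a difference of -0.63 ± 0.21 (SE). Egr1, a zinc finger transcription factor, stood at -0.19 and -0.22 in CAT+ADDL and at 0.20 and 0.17 in ADDL+CAT (-0.38 ± 0.12). Klf4, a zinc finger factor, was at -0.0081 and 0.17 in CAT+ADDL and at 0.39 and 0.49 in ADDL+CAT (-0.36 ± 0.13). Arc and Egr1 were below vehicle in CAT+ADDL and above it in ADDL+CAT, while Klf4 was near or above vehicle in CAT+ADDL and further above it in ADDL+CAT.

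Egr4 had the widest difference of the list, with -0.60 and -0.52 in CAT+ADDL and 0.03 and 0.33 in ADDL+CAT (-0.74 ± 0.34). The kinase gene Sik1 differed by -0.57, the activin subunit gene Inhba by -0.48, Egr2 by -0.43, Fosl1 by -0.38, Jun by -0.37 and the orphan receptor gene Nr4a1 by -0.33. The phosphatase genes Dusp5, Dusp6 and Dusp1, which switch off MAP kinases, differed by -0.27, -0.28 and -0.21, and a further one, Dusp4, by -0.06 with overlapping arrays. Other members showed no such gap: Fos was above vehicle in both arms (0.27 and 0.30 in CAT+ADDL, 0.25 and 0.28 in ADDL+CAT), and Npas4, Egr3, Nr4a3, Btg2 and Plk2 overlapped. Bdnf, a neurotrophin gene induced by activity, differed by -0.09 ± 0.15. On the single-treatment arrays the list's median was -0.32 and 0.04 for CAT-SKL and -0.13 and -0.28 for ADDL.

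**Figure D5:**
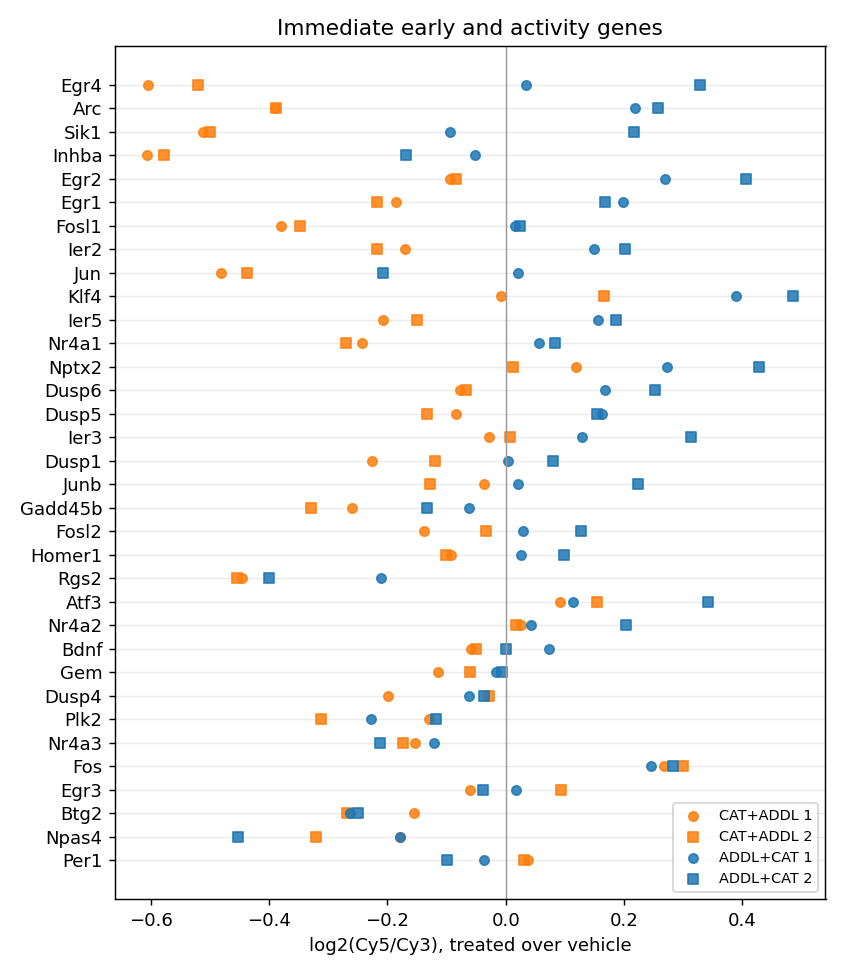
The log2(Cy5/Cy3) ratio of each array is plotted for the 34 immediate early and activity genes measured, ordered from the lowest difference between the arms. Egr4 and Arc are at the top with CAT+ADDL to the left of ADDL+CAT, and the arms come together towards Fos and Btg2.

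Promoters of the immediate early genes are shown because many genes of this class carry the cyclic AMP response element (CRE), a site bound by CREB. RefSeq windows of 300 bases around the gene start (GRCr8) were found for 25 of the 34 genes, with the first listed window used for a gene with several. The CRE was searched as TGACGTCA and as its core TGACG, which lies inside the longer site, on both strands. The SOX core ACAAAG was searched as well, and all 3 motifs were also searched in the oligodendrocyte list (10 windows). The motifs and lists were picked after the expression values had been seen. TGACGTCA was in 4 of 25 immediate early windows (16.0%), 0 of 10 oligodendrocyte windows and 1.91% of all 27456 windows. TGACG was in 16 of 25 (64.0%), 4 of 10 (40.0%) and 22.0% of all. ACAAAG was in 5 of 25 (20.0%), 3 of 10 (30.0%) and 18.3% of all.

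Most of these genes were lower in CAT+ADDL with or without a match. Of the 16 genes with TGACG, 14 were lower in CAT+ADDL with arrays apart, and of the 9 without it, 7 were. In the whole list 25 of 34 genes were, and over all probes the share was 25.2%. The windows with the longer site belong to Ier2 (difference -0.37), Dusp1 (-0.21), Plk2 (-0.05) and Btg2 (0.05), of which Ier2 and Dusp1 had arrays apart. They read, 5′ to 3′ on the gene's strand with matches to TGACG or its reverse complement in capitals:
Ier2 (chr19:40399123-40399422, plus strand): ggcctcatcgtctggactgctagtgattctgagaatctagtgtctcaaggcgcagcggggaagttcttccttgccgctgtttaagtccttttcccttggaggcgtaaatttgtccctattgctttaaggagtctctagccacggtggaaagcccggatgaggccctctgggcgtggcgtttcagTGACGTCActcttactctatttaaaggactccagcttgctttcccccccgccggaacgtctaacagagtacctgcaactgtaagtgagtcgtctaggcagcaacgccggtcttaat
Dusp1 (chr10:17184603-17184902, plus strand): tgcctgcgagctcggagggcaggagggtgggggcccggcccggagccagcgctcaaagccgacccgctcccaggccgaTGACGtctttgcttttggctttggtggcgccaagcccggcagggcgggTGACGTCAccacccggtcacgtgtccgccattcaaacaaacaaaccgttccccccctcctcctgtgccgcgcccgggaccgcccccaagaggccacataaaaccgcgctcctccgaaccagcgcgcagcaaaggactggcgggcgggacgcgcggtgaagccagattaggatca
Plk2 (chr2:43702286-43702585, plus strand): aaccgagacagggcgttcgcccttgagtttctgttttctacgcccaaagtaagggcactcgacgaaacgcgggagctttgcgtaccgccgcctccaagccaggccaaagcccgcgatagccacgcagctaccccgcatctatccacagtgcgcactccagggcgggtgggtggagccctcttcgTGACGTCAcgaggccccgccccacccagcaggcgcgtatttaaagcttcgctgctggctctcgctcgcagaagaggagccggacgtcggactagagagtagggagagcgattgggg
Btg2 (chr13:48087641-48087940, minus strand): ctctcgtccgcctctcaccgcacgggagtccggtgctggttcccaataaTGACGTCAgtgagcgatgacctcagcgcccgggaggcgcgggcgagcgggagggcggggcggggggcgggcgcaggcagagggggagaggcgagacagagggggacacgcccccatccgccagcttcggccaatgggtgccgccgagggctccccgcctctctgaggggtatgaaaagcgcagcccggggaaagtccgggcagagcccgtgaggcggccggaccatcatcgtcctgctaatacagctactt

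Synaptic and lipid genes lay slightly lower in CAT+ADDL. Of 29 presynaptic release genes, 17 were lower with arrays apart and 2 were higher, with a median difference of -0.10 and medians of -0.14 and -0.12 in CAT+ADDL, against -0.03 and 0.01 in ADDL+CAT. Pclo, a scaffold of the active zone, was at -0.35 on both CAT+ADDL arrays and at 0.0088 and 0.22 in ADDL+CAT (-0.46 ± 0.18), and another probe gave -0.50. The calcium channel gene Cacna1a differed by -0.35 ± 0.12, but its second probe gave -0.02. Napb, which takes apart fusion complexes, differed by -0.35 ± 0.13, whereas the fusion protein gene Snap25 differed by -0.10 ± 0.12.

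Of 26 cholesterol synthesis and transport genes, 12 were lower with arrays apart and 4 were higher, with a median difference of -0.08 (-0.14 without ADDL+CAT 2). Sqle, which makes squalene epoxide, was at -0.17 and -0.23 in CAT+ADDL and at 0.12 and 0.18 in ADDL+CAT (-0.35 ± 0.11). Srebf2, the transcription factor that drives this pathway, differed by -0.22 ± 0.09. Among 31 glutamate receptor and postsynaptic genes, 12 were lower and 6 higher with arrays apart, and the median difference was -0.02 (-0.10 without CAT+ADDL 2 and -0.09 without ADDL+CAT 2).

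The genes closest to the action of CAT-SKL showed small differences. Cat, the endogenous catalase gene, had log2 ratios of -0.05 and -0.15 in CAT+ADDL, against -0.25 and -0.28 in ADDL+CAT, a difference of 0.16 ± 0.16 (SE, 95% interval -0.22 to 0.54, adjusted p = 0.946). Cat was thus below vehicle on every array of the arms, and also on the CAT-SKL (-0.16 and -0.16) and ADDL arrays (-0.48 and -0.03). Of 11 catalase, glutathione peroxidase and superoxide dismutase genes, 5 were higher with arrays apart and 1 was lower, with a median difference of 0.08 (0.13 without CAT+ADDL 1 and 0.04 without CAT+ADDL 2).

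Gpx1, the main cytosolic glutathione peroxidase, was at 0.15 and 0.14 in CAT+ADDL and at -0.07 and -0.18 in ADDL+CAT (0.27 ± 0.11). Sod2, the mitochondrial superoxide dismutase, was at 0.15 and 0.24 in CAT+ADDL and at 0.26 and 0.33 in ADDL+CAT (-0.10 ± 0.10). The others were Gpx8 (0.15), Ccs (0.13), Sod3 (0.13), Gpx7 (0.08), Gpx3 (0.06), Gpx4 (0.06), Gsr (0.04) and Sod1 (-0.03), of which Gpx8, Ccs and Gsr had arrays apart.

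Of 16 peroxiredoxin and thioredoxin genes, 7 were higher with arrays apart and 2 were lower, with a median difference of 0.07 (0.15 without ADDL+CAT 1 and 0.03 without ADDL+CAT 2). Prdx1, a cytosolic peroxidase, was at 0.22 and 0.32 in CAT+ADDL and at -0.21 and -0.08 in ADDL+CAT (0.41 ± 0.15). Prdx4, which acts in the endoplasmic reticulum, was at 0.12 and 0.13 in CAT+ADDL and at -0.16 and -0.24 in ADDL+CAT (0.33 ± 0.10). Neither passed the threshold.

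Peroxisome genes gave no common direction: 10 of 35 were higher with arrays apart and 12 lower, close to the shares over all probes, and the median difference was 0.0081. Pex2, a ubiquitin ligase of the import machinery, was at 0.32 and 0.33 in CAT+ADDL and at -0.15 and -0.12 in ADDL+CAT (0.45 ± 0.10, adjusted p = 0.870). Pex5, the receptor that imports proteins carrying the SKL signal, differed by -0.10 ± 0.12. Pex14, its docking partner, differed by -0.19 ± 0.10.

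Neuropeptide genes went both ways, with 6 of 19 higher and 10 lower with arrays apart and a median difference of -0.09 (-0.15 without ADDL+CAT 2). Cort, a relative of somatostatin, was at 1.27 and 1.23 in CAT+ADDL and at 0.61 and 0.54 in ADDL+CAT (0.67 ± 0.21). The secretogranin gene Scg2 was at 0.05 and 0.03 in CAT+ADDL and at 0.43 and 0.48 in ADDL+CAT (-0.41 ± 0.19). Tac1, the substance P gene, was at 0.0095 and 0.01 in CAT+ADDL and at 0.32 and 0.54 in ADDL+CAT (-0.42 ± 0.22). Cort was above vehicle in both arms, and Scg2 and Tac1 were near vehicle in CAT+ADDL.

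Genes of the amyloid pathway, which make or clear the peptide of the oligomers, had a median difference of -0.05 (4 of 19 higher and 7 lower with arrays apart; -0.0044 without ADDL+CAT 1). Apoe, a lipid carrier made largely by astrocytes, was above vehicle in both arms, at 1.40 and 1.46 in CAT+ADDL and at 0.80 and 0.25 in ADDL+CAT (0.91 ± 0.48).

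Chemokine and cytokine genes had a median difference of -0.02, with 3 of 20 higher and 9 lower with arrays apart, and it ran from -0.04 to -0.03 without any 1 array of the arms. Vcam1, an adhesion molecule and the widest difference of the list, was at 1.19 and 1.17 in CAT+ADDL and at 0.61 and 0.07 in ADDL+CAT (0.84 ± 0.40). The chemokine gene Ccl3 was at 0.32 and 0.38 in CAT+ADDL and at 0.69 and 0.83 in ADDL+CAT (-0.41 ± 0.17), and the cytokine gene Il1b was at 0.07 and 0.05 in CAT+ADDL and at 0.24 and 0.49 in ADDL+CAT (-0.31 ± 0.12). The Il1b value depended on the processing, from -0.18 without ADDL+CAT 2 to -2.19 with the deposited log ratios. Interferon and antigen presentation genes differed by a median of 0.03 (6 of 20 higher and 3 lower; 0.0027 without CAT+ADDL 2 and 0.07 without CAT+ADDL 1).

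Among the metabolic lists, oxidative phosphorylation genes differed by a median of 0.06 (14 of 29 higher and 7 lower). The median ratio of that list was nevertheless alike in the arms, at 0.0147 and 0.0161 in CAT+ADDL and at 0.0150 and 0.0166 in ADDL+CAT. Glycolysis and hypoxia genes differed by -0.06 (5 of 29 higher and 14 lower, and -0.10 without ADDL+CAT 2). The sign of the glycolysis and hypoxia median was not kept over the alternatives, which ran from -0.10 to 0.03. Vegfa, a growth factor gene induced by hypoxia, was at -0.29 and -0.31 in CAT+ADDL and at 0.03 and 0.26 in ADDL+CAT (-0.45 ± 0.11), and its other probes gave -0.51, -0.33 and -0.10. NRF2 targets, which respond to oxidants, differed by a median of 0.06 (8 of 20 higher and 3 lower; 0.13 without ADDL+CAT 1 and 0.02 without ADDL+CAT 2). The glutathione transferase gene Gsta4 had the smallest p of that list, with 0.37 and 0.31 in CAT+ADDL and -0.02 and -0.13 in ADDL+CAT (0.42 ± 0.11).

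Tubulin genes differed by a median of 0.10 (7 of 14 higher and 1 lower; 0.22 without ADDL+CAT 1 and 0.04 without ADDL+CAT 2). The remaining lists had medians within 0.05 of 0. Unfolded protein and integrated stress response genes differed by 0.02 (8 of 26 higher and 9 lower; -0.02 without CAT+ADDL 1 and without ADDL+CAT 1), with 0.55 ± 0.19 for the chaperone gene Hsp90b1 and -0.48 ± 0.20 for Sesn2. Cytosolic heat shock chaperones differed by -0.0030 (-0.05 without ADDL+CAT 2 to 0.08 without ADDL+CAT 1), p53 target and apoptosis genes by -0.05 (-0.08 without CAT+ADDL 2), autophagy and lysosome genes by -0.05 (-0.01 without CAT+ADDL 2), NADPH oxidase genes by -0.04, glutamatergic neuron genes by -0.04 (-0.01 without ADDL+CAT 1) and endothelial, pericyte and fibroblast markers by 0.00019.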

How the data were processed

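Treated (Cy5) and vehicle (Cy3) RNA were measured on 8 two-colour Agilent arrays with 62976 spots each. The deposited scanner files hold spot intensity per channel with its background, and a log10 ratio of red over green which the authors made with Agilent Feature Extraction (11.5, as the submitters' processing notes and the file headers state). The deposited flags are a score of 0 or 1 per spot, per the file headers. Here the median intensities were corrected by normexp with an offset of 50, then normalised by loess within each array in limma 3.58.1 (R 4.3.3). Outlier spots (902 to 1262 an array) were dropped before a probe's spots were averaged. A probe was kept if 2 or more of the 8 arrays had it well above background in Cy5 or Cy3 (25363), and 67 of these lacked a value. CAT+ADDL and ADDL+CAT were compared with limma over 7 samples, with Benjamini-Hochberg adjustment over 25296 probes. The fit was tested on simulated data with planted differences of 1 and 2 log2 units. It recovered the changed probes but made more false calls than the threshold allows. The changed probes were picked at random from all probes, whose median standard error was 0.109. Only 17 probes of the real data differed by at least 1 log2 unit. Named genes with such differences had larger standard errors, for example 0.26 for Cdkn1c and 0.51 for Mbp, and none passed the threshold. The simulation therefore cannot show whether smaller differences, or wide ones in probes of large spread, would be found. A gene is given by its brightest probe. RefSeq GRCr8 named 17998 of 30367 probes, by accession without version. No probe coordinates are given, because the array was designed on another build.

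The named genes were the 10 with the smallest p in each direction among those with arrays apart and Cy5 well above background on all 4 arrays, the 3 with the smallest p of each of 28 lists, and all antioxidant enzymes with Cat; some are not reported here, and further list members are named after their values were seen. Members and lists were chosen with earlier results of these data known. Same-numbered arrays did not deviate together (r from -0.19 to 0.07 between groups), so numbers were not used to pair samples. Alternatives changed the counting of samples, the samples in the fit, the normalisation, the filter, the values and the test.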

Additional observations from a re-analysis of the deposited data

Results flagged for a closer look

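For 40 of the 100 genes given in the report, 14 of them among the 20 with the smallest p, both CAT+ADDL arrays lay on one side of vehicle and both ADDL+CAT arrays on the other. The medians of 3 gene lists did so too. The rule set no minimum distance from vehicle. How many of all probes lay across vehicle in this way was not counted, so the 40 have no share to be read against. The difference between the arms passed the threshold in limma for none of these genes (smallest adjusted p 0.870, with 1415 of all 25296 probes at an unadjusted p under 0.05), and it was not tested for the lists. Many of these genes were chosen for arrays that do not overlap, which held for 24.2% of all probes in the higher and 25.2% in the lower direction.

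Above vehicle in CAT+ADDL and below it in ADDL+CAT were the glial genes Mbp (log2 difference 1.98) and Bcas1 (1.65), and Mgp (1.33). Genes of other functions were Nxph1 (0.83), Septin7 (0.81), Rsl24d1 (0.63), Hsp90b1 (0.55), Dll3 (0.55), Trappc2 (0.54) and Pogz (0.50). Second probes of Nxph1 and Pogz were above vehicle in both arms, and those of Mbp and Bcas1 did not lie across vehicle on all 4 arrays. A second probe of Dll3 did. Peroxisomal and antioxidant genes were Pxmp2 (0.59), Pex2 (0.45), Gsta4 (0.42), Prdx1 (0.41), Prdx4 (0.33), Gpx1 (0.27) and Ccs (0.13). Ccs lay close to vehicle in ADDL+CAT, at -0.0074 and -0.03, and a second probe of Pxmp2 did not lie across vehicle on all these arrays.

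Below vehicle in CAT+ADDL and above it in ADDL+CAT were the activity genes Egr4 (-0.74), Arc (-0.63), Egr2 (-0.43), Egr1 (-0.385), Fosl1 (-0.38), Ier2 (-0.37), Nr4a1 (-0.33), Dusp6 (-0.28), Dusp5 (-0.27), Dusp1 (-0.21) and Bdnf (-0.0908). Signalling and channel genes were Shoc2 (-0.66), Map2k4 (-0.58), Fgfr1 (-0.57), Cacna1h (-0.54), Vegfa (-0.45) and Sstr3 (-0.38). The others were Nfxl1 (-0.52), Pclo (-0.465), Sqle (-0.35), Napb (-0.35), Pex14 (-0.19) and Cldn11 (-0.11). None of the other probes of Vegfa lay across vehicle on all arrays of the arms, nor did the second probe of Map2k4. Second probes of Fgfr1 and Pclo did. Some of the genes below vehicle in CAT+ADDL lay close to vehicle in ADDL+CAT, with Bdnf at 0.07 and 0.00039 and Dusp1 at 0.0035 and 0.08.

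Among the lists, the medians were below vehicle in CAT+ADDL for immediate early and activity genes (-0.21) and for glycolysis and hypoxia genes (-0.0649), whose sign was not kept over the alternatives (-0.10 to 0.03). The median was above vehicle in CAT+ADDL for catalase, glutathione peroxidase and superoxide dismutase genes (0.0822).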

How the results depend on the processing

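The count of 0 probes past the threshold was also 0 with 8 separate samples (3584 at an unadjusted p under 0.05, smallest adjusted p 0.089), without background correction, with the deposited log ratios, with Cy5 alone, without a filter, with a Cy5 filter on all 4 arrays, with 1 probe a gene and with a trend. It was 3 with only the 4 arrays of the arms (Cdhr1, Mbp and an unnamed transcript) and 5 with median centring (Mbp, Bcas1, Mgp, Cdkn1c and the same unnamed transcript), and the cause was not tested. Median centring also shifted the median of all probes to 0.02 and gave 977 higher and 197 lower at an unadjusted p under 0.05, in place of 725 and 690. Leaving out 1 array gave 0 to 3: 3 without CAT+ADDL 1 (Xpnpep2, Sfxn1 and an unnamed probe, low on CAT+ADDL 2 alone), and 1 (Cdhr1) without either CAT-SKL array. With the replicate number as a block, which the data do not bear out as a pairing, the count was 0, also with 8 separate samples. Of 109 named genes, 4 changed sign in 6 of 2179 values: Gpx3 (-0.0017 without CAT+ADDL 2 and -0.0986 without ADDL+CAT 2, up to 0.226 without ADDL+CAT 1), Gpx4 (-0.0634 with deposited log ratios), Gpx7 (-0.027 without ADDL+CAT 1, up to 0.191 without ADDL+CAT 2) and Sod1 (0.12 with median centring and 0.0052 with Cy5 alone). The sign of the median was kept over all settings for 16 of 28 lists, among them oligodendrocyte (0.30 to 0.70), astrocyte (0.28 to 0.61) and immediate early genes (-0.31 to -0.15), and not for 12, among them neuron markers (-0.15 to 0.02), glycolysis and hypoxia genes (-0.10 to 0.03) and peroxisome genes (-0.02 to 0.08). With 2 arrays a group, 1 pair of them close to technical duplicates, the number of arrays limits the precision.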
